A study of Mus musculus with 4 samples.

Results

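Mouse chromosome 19 was followed gene by gene, in position order, in RNA from 4TO7 mammary carcinoma cells. The table joined 1390 of its genes to chromosome 19 of mm10, of which 619 had no read, 278 had reads but a mean under 10 normalized counts, and 493 had a mean of at least 10. Leaving out 5 interferon-induced Ifit genes and the corepressor gene Lcor gave the 487 genes described here, chosen by position and mean level, out of 55385 in the table and 14238 that reached the same level on all chromosomes. The genes nearest the level threshold were Actn3, Vwce and Cntf below it (means of 9.91, 9.56 and 9.29 normalized counts) and A930007I19Rik, 2310034G01Rik and Gm15491 above it (10.3, 10.5 and 10.8). 427 of the 487 were protein-coding. Shifted segments among them were selected on the difference between resistant and control libraries.

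The cells came from tumors in Balb/c mice, digested with enzymes and harvested in culture medium before RNA extraction. Resistant 1 and 2 are the 2 libraries of tumors that had become refractory to an antibody against the checkpoint ligand PD-L1, and control 1 and 2 are those of control tumors. The labels name the antibody as the in vivo treatment of all 4 samples but also give all 4 as untreated, so the exposure of the control tumors is unclear. The design text calls them biological replicates without naming animals, so each p-value reflects nothing beyond the variation among these 4 libraries. The libraries held 45666470 to 49592054 counted reads. Among 6 mammary carcinoma markers, Krt8 and Krt18 overlapped between the groups, at 12649 to 42630 normalized counts. Cdh1 did not overlap, with 1952 and 2252 normalized counts in the resistant and 2396 and 2303 in the control libraries. Of 10 leukocyte markers, Cd68 had 3227 to 10566 normalized counts and the other 9 had at most 8.15 in any library, Ptprc at most 2.15. Of 5 fibroblast markers, Pdgfra overlapped between the groups, at 5766 to 8504 normalized counts. Dcn had 163 and 143 in the resistant and 763 and 483 in the control libraries, and Col1a1, Pdpn and Lum at most 69.6. The 4 endothelial markers had at most 21.1. Of the other carcinoma markers, Epcam had 87.6 and 113.7 normalized counts in the resistant and 341 and 246 in the control libraries, and Cldn7 5.10 and 5.36 against 42.3 and 32.3. Krt7 went the other way, at 90.7 and 135 against 34.6 and 24.2. Fewer cells of a type and less RNA per cell cannot be told apart in such bulk samples.

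4TO7 is a line from the same BALB/c mammary tumor as the metastatic line 4T1. Genes that sit side by side on a chromosome share its DNA copy number and often its chromatin state, and carcinoma lines commonly carry gains and losses of chromosome stretches. A running median along position averages out single regulated genes and leaves what neighbours have in common. Neither DNA nor chromatin was measured in these samples. Chromosome 19 is the smallest mouse autosome and is gene-dense near its centromere. It carries the PD-L1 gene Cd274 beside the cytokine receptor kinase gene Jak2, the death receptor gene Fas, and the NF-kappaB subunit genes Rela and Nfkb2.

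The starts of Jak2 and Cd274 lie 116 kb apart within 1 shifted segment, whereas Fas lies outside the segments. The 250 bases before their RefSeq start sites (GRCm38.p6, all on the plus strand) are shown because these 3 genes link the position series to interferon signalling, checkpoint and death receptor biology. Capitals mark CpG dinucleotides, the sites of vertebrate DNA methylation, of which there were 37 before Jak2 (chr19:29251553-29251802), 11 before Cd274 (chr19:29367188-29367437) and 11 before Fas (chr19:34290409-34290658).
Jak2: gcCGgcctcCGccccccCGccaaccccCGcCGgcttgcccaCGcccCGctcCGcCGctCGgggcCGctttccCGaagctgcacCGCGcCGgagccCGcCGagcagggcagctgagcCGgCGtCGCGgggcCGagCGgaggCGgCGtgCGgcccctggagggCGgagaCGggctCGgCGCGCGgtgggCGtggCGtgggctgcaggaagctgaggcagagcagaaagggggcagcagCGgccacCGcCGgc
Cd274: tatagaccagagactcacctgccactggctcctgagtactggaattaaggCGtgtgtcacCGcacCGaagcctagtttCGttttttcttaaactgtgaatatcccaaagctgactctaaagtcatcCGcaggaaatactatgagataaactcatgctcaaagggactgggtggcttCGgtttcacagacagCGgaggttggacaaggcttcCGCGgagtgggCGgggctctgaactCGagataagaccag
Fas: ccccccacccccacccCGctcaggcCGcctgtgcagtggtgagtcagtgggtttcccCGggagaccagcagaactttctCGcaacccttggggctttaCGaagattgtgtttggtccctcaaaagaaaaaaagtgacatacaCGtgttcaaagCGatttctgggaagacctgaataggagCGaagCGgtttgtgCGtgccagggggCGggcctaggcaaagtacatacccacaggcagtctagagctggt
CG, searched on both strands, occurred in 91.7% of 27025 promoter windows of this length and in 98.6% of the 364 found for the 487 genes. RefSeq windows were found for 74.7% of the genes, too few to compare promoters along the chromosome.

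Chromosome 19 genes were mostly lower in the resistant libraries, by a small amount each. Their median log2 difference, resistant minus control, was -0.22, a ratio of 0.856, whereas the median of all 14238 tested genes was 0.00. 369 of the 487 (75.8%) lay below 0, against 49.7% of all tested genes. The shift appeared in every pairing of a resistant with a control library: the median was -0.22 for resistant 1 minus control 1, -0.20 for resistant 1 minus control 2, -0.22 for resistant 2 minus control 1 and -0.19 for resistant 2 minus control 2. Within groups the medians were -0.03 (resistant 1 minus resistant 2) and 0.05 (control 1 minus control 2). The running medians that define the segments use this contrast, so the differences along position are descriptions with no test.

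The same counts can be given as a share of all counted reads, which is a restatement and not independent of the differences above. These genes took 2.89% of reads in resistant 1 (95% Wilson interval 2.88% to 2.89%), 2.88% in resistant 2 (2.88% to 2.89%), 3.46% in control 1 (3.45% to 3.47%) and 3.38% in control 2 (3.37% to 3.38%). Both resistant libraries lay below both controls. The intervals cover only the counting error of reads taken as independent, not variation between libraries. No molecular identifiers separated PCR copies, so the intervals can be too narrow even for counting error. With 2 libraries against 2, the smallest two-sided p of an exact permutation test is 0.333.

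Few single genes passed the test. In limma's moderated test across all 14238 genes (Benjamini-Hochberg adjusted p under 0.05), 34 of the 487 genes were lower and 11 higher. That is 6.98% and 2.26%, against 4.73% lower and 5.32% higher among all tested genes. In either direction it is 9.24%, against 10.1% of all tested genes. The 2 groups did not overlap, with the resistant libraries lower, for 266 genes (54.6%, against 28.3% of all tested genes) and with them higher for 51 (10.47%, against 28.4%). Because the rule used this contrast, nothing further is read from these shares. Scaling by total reads, or centring each library on the genes outside chromosome 19, gave 54 lower and 9 higher. With no filter on low counts, 3 of 764 chromosome 19 genes were lower and 2 higher. Among all genes with a read, 185 were then lower and 126 higher. With total-read scaling 11.1% of the chromosome 19 genes and 5.61% of all tested genes were lower. Leaving out resistant 1 or resistant 2 left 3 and 4 lower and 6 and 3 higher. Leaving out control 1 or control 2 gave 99 and 142 lower and 23 and 25 higher. These moves ran through all tested genes, of which 1.64% and 1.88% were lower and 1.42% and 1.03% higher without resistant 1 or 2. Without control 1 or 2, 9.83% and 14.0% of all tested genes were lower and 12.7% and 14.6% higher.

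**Figure D1:**
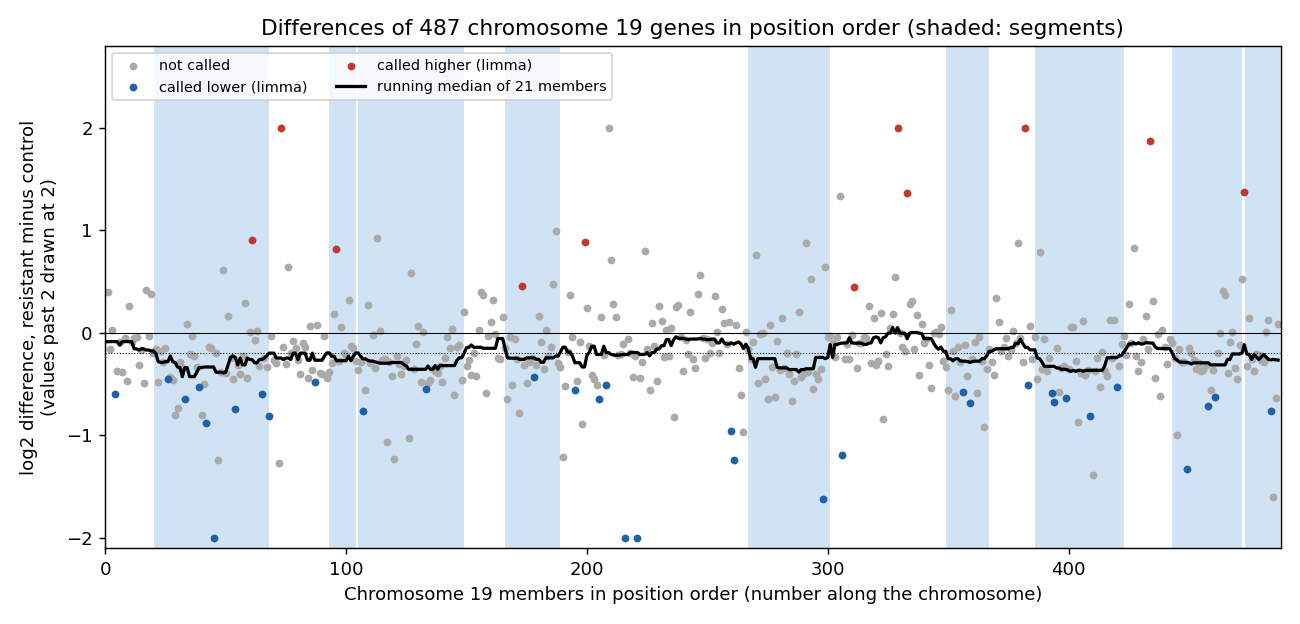
Log2 difference (resistant minus control, vertical axis) of each of the 487 genes against its number along the chromosome. The black line is the running median of 21 genes (fewer at the ends), the bound of -0.2 is dotted, and segments are shaded. The running median lies below 0 for 99.0% of genes and drops to -0.43, while single called genes (limma, blue lower, red higher) scatter on both sides of it. Differences beyond 2 are drawn at 2.

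The running median was taken over each gene and the 10 on each side of it, with fewer at the chromosome's ends. A segment was a run of at least 10 genes with a running median at or beyond 0.2. This gave 9 segments, all lower, with 250 of the 487 genes, and no segment on the higher side. The lowest running median was -0.43, reached first at Rad9a near 4.2 Mb and again at Ssh3, Ankrd13d and Grk2. The highest was 0.05, at Fra10ac1 near 38.2 Mb and again at Plce1. The bound lies close to the chromosome's own median, so the edges mark where a shift present along most of the chromosome crosses 0.2. Gstp1 (-0.20) and Gfra1 (-0.20) lay just inside the bound, Efemp2 (-0.20) and Cfl1 (-0.20) just outside. With the bound at 0.15 there were 9 segments with 347 genes, and at 0.3 there were 4 with 86.

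The gene-dense start of the chromosome held 3 segments. Segment 1 ran from the glutathione transferase gene Gstp1 to the splicing factor gene Sf3b2 (chromosome 19, 4035407 to 5295455, mm10). It had 47 genes at 37.3 per Mb and a median log2 difference of -0.32. Its most read genes were Sf3b2, the protein phosphatase 1 catalytic subunit gene Ppp1ca and the histone demethylase gene Kdm2a, with log2 differences of -0.33 ± 0.10 (SE), -0.29 ± 0.14 and -0.33 ± 0.10, none of which passed. Segment 2, which ended with the calpain gene Capn1 (6015897), had only 10 genes, and their own median was -0.14. Windows of 21 reach beyond so short a run, and the resistant libraries lay below both controls for only 2 of the 10. Segment 3 ran from the mitochondrial ribosomal gene Mrpl49 to the N-terminal acetyltransferase gene Naa40 (6053622 to 7241183), with 43 genes and a median of -0.31.

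Further along, segments were poorer in genes, at 4.39 to 20.1 per Mb against 36.2 to 38.8 in the first 3. Segment 4, from Taf6l to AC132253.6 (8774487 to 9868995), had 22 genes and a median of -0.25. Segment 5, from the guanine nucleotide exchange factor gene Dock8 to the inositol phosphatase gene Minpp1 (24999534 to 32515364), covered 7.52 Mb with 33 genes and a median of -0.34. Segment 6, from Ubtd1 to Entpd7 (41981763 to 43733697), had 17 genes and a median of -0.28, and 16 of its genes lay below 0. Segment 7, from Lzts2 to the nucleotidase gene Nt5c2 (45014414 to 47015153), had 36 genes and the lowest median, -0.36. Segment 8, from Smndc1 to Hspa12a (53379390 to 58943654), had 28 genes and a median of -0.29, and segment 9, from Pdzd8 to CR555305.3 (59297178 to 61305280), 14 genes and a median of -0.26.

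Stretches outside the segments were not uniform. The 26 genes between segments 1 and 2, from Cst6 to Ltbp3, had a median of -0.26, with 22 below 0, lower than the medians of segments 2 and 4. The 49 genes between segments 5 and 6 (32485923 to 41981157), among them Fas, had a median of -0.06, and 32 of them lay below 0. There the 4 pairings of a resistant with a control library gave medians from -0.13 (resistant 2 minus control 2) to 0.01 (resistant 1 minus control 1), and control 1 lay 0.11 below control 2. The 79 genes between segments 4 and 5 (9872296 to 24961610) had a median of -0.16. The 237 genes outside all segments together had a median of -0.12.

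**Figure D2:**
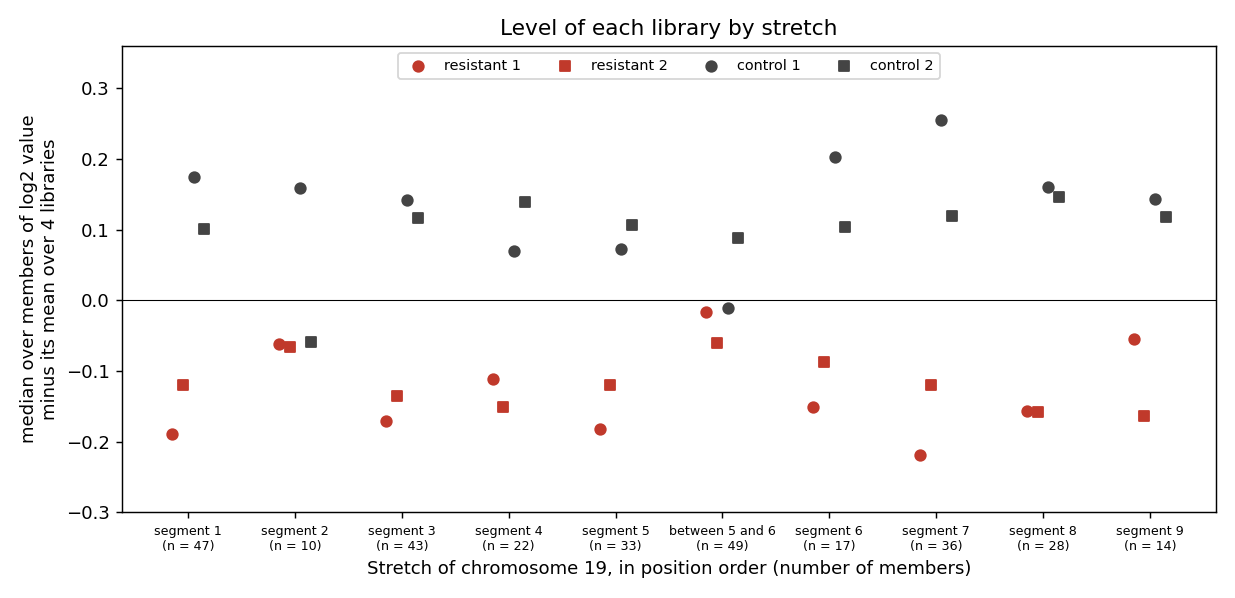
For each segment, and for the 49 genes between segments 5 and 6, the median over genes of each library's log2 value minus its mean over the 4 libraries (vertical axis, red resistant, grey control, circles replicate 1, squares replicate 2). Both resistant libraries lie below both controls in all 9 segments by this median, but in segment 2 control 2 (-0.06) lies almost level with them, and in the stretch between 5 and 6 control 1 (-0.01) lies almost level with resistant 1 (-0.02).

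Segments were also located with libraries that had no part in measuring them. Resistant 1 minus control 1 gave 9 segments, all lower, with 252 genes and medians from -0.50 to -0.23. In resistant 2 minus control 2, which shares no library with them, the medians of these 9 ranged from -0.30 to -0.11. The median of all 487 genes was -0.19 there, and 6 of the 9 lay below it and 3 nearer to 0. The reverse gave 10 segments, all lower, with 198 genes and medians from -0.31 to -0.22. In resistant 1 minus control 1 these 10 ranged from -0.49 to -0.10, and against the median of all 487 genes, -0.22, 4 lay below it, 1 equalled it and 5 lay nearer to 0. All held-out medians were below 0, as were nearly all running medians of the chromosome, so their sign does not set the segments apart from it. Edges differed between the pairs of libraries. Segments 5 and 7 described above were located with all 4 libraries, so their medians by pair are not held-out values. For segment 5 they were -0.23 in resistant 1 minus control 1 and -0.20 in resistant 2 minus control 2, and for segment 7 -0.48 and -0.21.

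**Figure D3:**
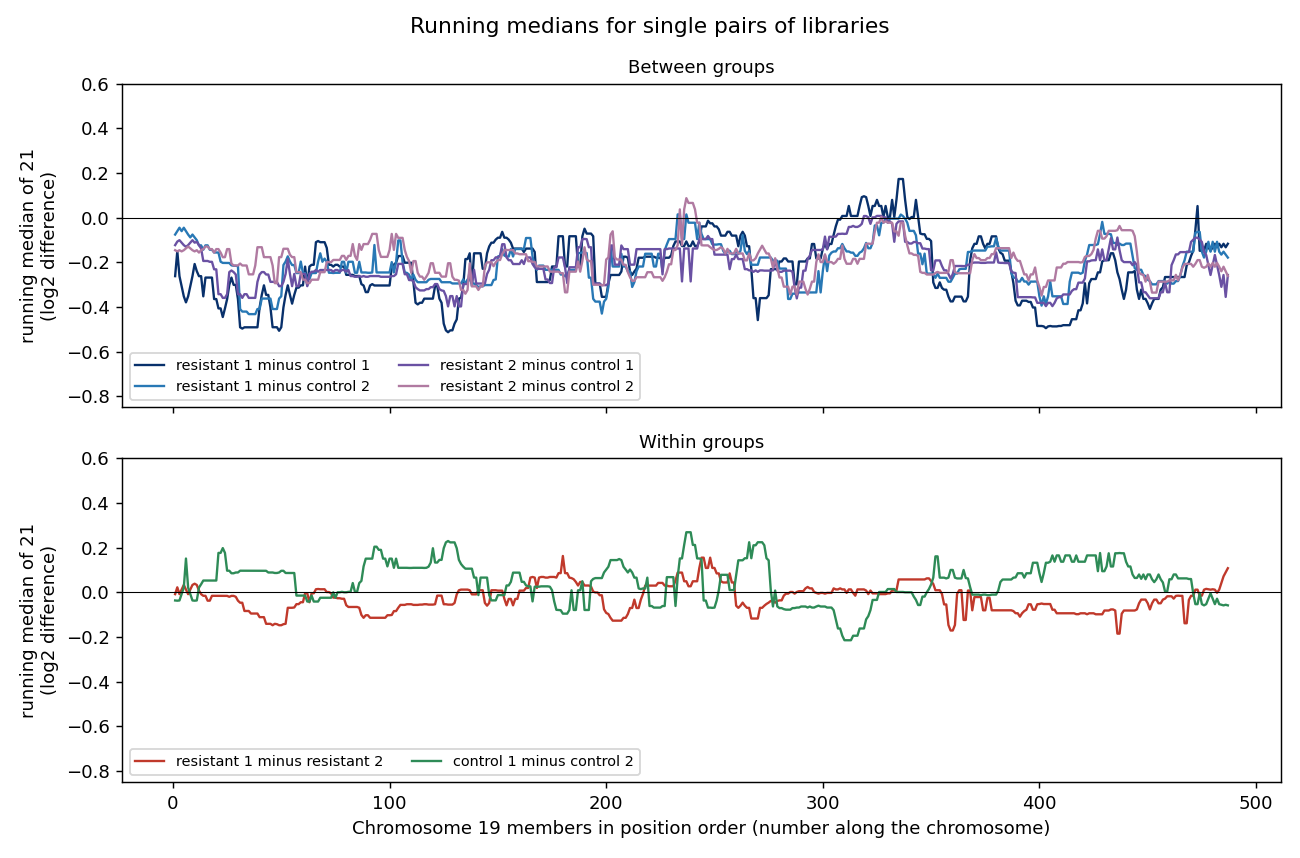
Running medians of 21 genes (fewer at the ends) along chromosome 19, in log2 differences. The top shows each pairing of a resistant with a control library, the bottom the 2 libraries within each group. The between-group lines stay mostly below 0, down to -0.51, while the within-group lines range from -0.21 to 0.27.

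The control libraries also differed from each other along position. The running median of control 1 minus control 2 ranged from -0.21 to 0.27, and that of resistant 1 minus resistant 2 from -0.18 to 0.16. Over segments 2, 6 and 7 control 1 lay 0.25, 0.16 and 0.17 above control 2. Over segments 4, 5 and 9 it lay 0.08, 0.05 and 0.06 below.

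Gene length, transcript GC content and level were compared as descriptions. The rule used mean level to choose the genes, not to place the segments. Genes inside segments had a median length of 13.5 kb and a median transcript GC content of 53.1%, and those outside 18.5 kb and 49.6%. Their median levels were 1259 and 1284 normalized counts. Across all tested genes outside chromosome 19, quartiles of transcript GC content had median differences between -0.01 and 0.03, whereas the chromosome 19 genes in the same quartiles had -0.18, -0.19, -0.26 and -0.24 from low to high GC. 35.1% of them fell in the highest GC quartile. By quartile of level the chromosome 19 medians were -0.10 at the lowest levels and -0.24 in each of the others, against -0.03 to 0.02 elsewhere.

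Chromosome medians ranged from -0.23 for the 493 tested genes of chromosome 19 to 0.21 for 577 genes of chromosome 15. The next lowest were chromosome 3 at -0.16 and chromosome 16 at -0.14. By the same rule, 52.5% of tested genes of chromosome 19 lay in lower segments, against 25.1% on chromosome 3 and 19.7% on chromosome 16. Higher segments held 0% of its genes, against 40.6% on chromosome 15 and 35.6% on chromosome 6. The lowest running median was -0.43 on chromosome 19, beside -0.51 on chromosome 3 and -1.08 on chromosome 18. All of these come from the same 4 libraries, and differences between chromosomes were not tested.

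**Figure D4:**
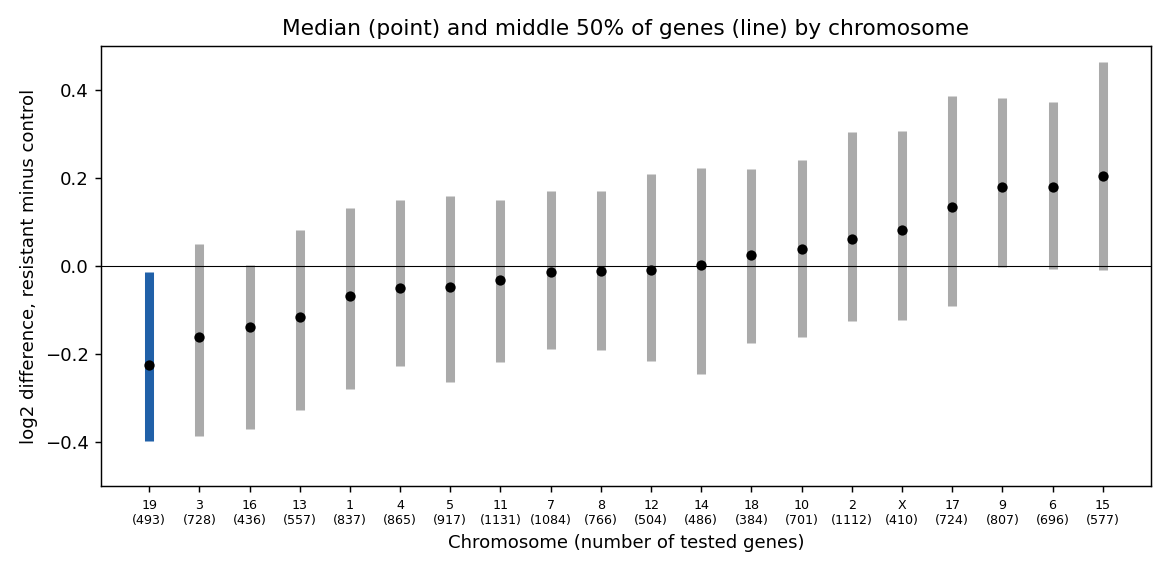
Median log2 difference, resistant minus control (points), and the middle 50% of genes (lines) for each chromosome, ordered by median, with the number of tested genes under each name. Chromosome 19 (blue, Ifit genes and Lcor included) has a median of -0.23, and the upper quartile of its 487 genes without them is -0.01.

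Against this common shift some immune signalling genes were lower. 16 of the 18 genes listed for chromosome 19 were measured, 13 lay below 0, and their median was -0.31. The share below 0 is 81.25%, against 75.8% of all 487 genes. 2 passed, both lower, namely Fas and Rela. That is 12.5%, against 6.98% of the 487 genes and 4.73% of all tested genes. Fas (ENSMUSG00000024778.13, chromosome 19, 34290666 to 34327772), the receptor through which cytotoxic lymphocytes trigger apoptosis, had 199.7 and 203 normalized counts in the resistant libraries and 428 and 497 in the controls. It fell by 1.19 ± 0.17 (SE) on the log2 scale (limma adjusted p = 0.00736), in a stretch whose running median was -0.10. Rela, the transactivating NF-kappaB subunit p65, had 3175 and 3464 against 4439 and 4797 normalized counts (-0.48 ± 0.11, adjusted p = 0.0354). Neither call held without resistant 1 or without resistant 2: without resistant 1 and 2 the log2 differences were -1.18 and -1.20 for Fas and -0.41 and -0.54 for Rela. The median of the 16 was -0.30 and -0.32 without resistant 1 and 2, and -0.23 and -0.37 without control 1 and 2.

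The PD-L1 gene itself lay in segment 5. Cd274 (ENSMUSG00000016496.7, 29367455 to 29388095) had 355 and 305 normalized counts in the resistant libraries and 451 and 600.1 in the controls, so the groups did not overlap, but its difference of -0.66 ± 0.19 did not pass (limma adjusted p = 0.0772). Jak2 (ENSMUSG00000024789.13, 29251828 to 29313080), the kinase that relays signals from interferon gamma and other cytokine receptors, had 4057 and 4356 against 5964 and 4752 normalized counts. Its difference of -0.34 ± 0.13 did not pass (adjusted p = 0.155). Cd274 lay 0.30 below the running median at its place. In the same segment the alarmin gene Il33, named after its values were seen, had 2633 and 3126 against 2143 and 1131 normalized counts (0.88 ± 0.27, adjusted p = 0.0849). Nfkb2, which encodes the precursor of the subunit p52, had 6448 and 6674 against 8377 and 8845 normalized counts (-0.39 ± 0.10, adjusted p = 0.0515) in segment 7, where the running median was -0.36. Among these 3 signalling genes without a call, Cd274 passed without control 1 (-0.87), Jak2 without control 2 (-0.50), and Nfkb2 with scaling by total reads (-0.43) and without either control (-0.43 and -0.35). Exons of Cd274 and Nfkb2 overlap those of other annotated genes, and the sources used here do not give the strand setting of the counting, so reads can be shared.

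Most growth control genes had negative differences, as did most genes of the chromosome, and 1 passed. Of 18 measured genes of growth control and Wnt signalling, 17 (94.4%, against 75.8% of all 487 genes) lay below 0. Their median was -0.35, beside -0.22 for all 487 genes. The 1 called gene is 5.56% of the list, near the 4.73% called lower among all tested genes. Tcf7l2, a transcription factor of Wnt signalling, fell from 781 and 644 normalized counts in the controls to 407 and 461 (-0.71 ± 0.17, limma adjusted p = 0.0371). Without resistant 1 or 2 its differences were -0.62 and -0.80 and the call ended. The menin gene Men1 (-0.40 ± 0.11), the growth factor gene Vegfb (-0.39 ± 0.12) and the ubiquitin ligase gene Btrc (-0.38 ± 0.11) did not pass. The median of the 18 was -0.25 without control 1 and -0.38 without control 2.

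In each of 5 further lists at most 2 genes passed. The shares called lower ran from 0% to 8.33%, against 4.73% of all tested genes, and nothing is read from them. Of 12 lipid metabolism genes (median -0.13) Cpt1a, which admits long-chain fatty acids to mitochondria, fell by 0.60 ± 0.15. Of 17 replication, repair and mitosis genes (median -0.20) the flap endonuclease gene Fen1 fell by 0.56 ± 0.12. Of 21 mitochondrial genes (median -0.10) Pcx, the pyruvate carboxylase gene, fell by 0.88 ± 0.15. Of 23 genes of RNA and protein synthesis (median -0.14) the nuclear paraspeckle RNA Neat1 rose and Fau, which encodes a ribosomal protein fused to a ubiquitin-like domain, fell by 0.76 ± 0.18. Of 15 cytoskeletal genes (median -0.15) 0 passed in limma and 0 in limma voom, with 4 at an unadjusted p under 0.05 in each. The calls of Cpt1a, Fen1, Pcx and Fau ended without resistant 1 (-0.48, -0.57, -0.80 and -0.80) and without resistant 2 (-0.72, -0.55, -0.96 and -0.72). In the order given above, the medians of these 5 lists without control 1 were -0.16, -0.24, -0.15, -0.24 and -0.14. Without control 2 they were -0.15, -0.13, -0.05, -0.03 and -0.16.

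The 2 largest falls among called genes lay in the stretch between segments 4 and 5. AW112010 (ENSMUSG00000075010.5, 11047612 to 11055808), annotated as a long noncoding RNA and known as interferon-induced, had 27.5 and 25.7 normalized counts in the resistant libraries and 246 and 170.4 in the controls, a difference of -2.90 ± 0.28 (limma adjusted p = 0.00125). Mpeg1, which encodes the pore-forming protein perforin-2 of macrophages, had 22.4 and 22.5 against 196 and 109.9 normalized counts (-2.65 ± 0.34, adjusted p = 0.00414). The groups were far apart for both, and both differences lay far beyond the running medians there, -0.21 and -0.19. Of the leukocyte markers, Cd68 was higher in the resistant libraries (10566 and 9975 against 3227 and 6349 normalized counts), and Adgre1 had at most 1.01. Nearly all leukocyte marker counts were Cd68. The other 9 markers summed to 14.3 and 16.1 in the resistant and 8.65 and 13.1 in the control libraries, with Cd8a at 0 in all 4. Their part in the Mpeg1 difference was not tested.

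Other falls were spread over the chromosome. Apba1, which encodes an adaptor of neuronal vesicle proteins, had 311 and 342 against 636 and 631 normalized counts (-0.96 ± 0.15, limma adjusted p = 0.0103). In segment 8 the splicing regulator gene Rbm20 changed by -1.33 ± 0.26, and in segment 7 Mfsd13a by -0.81 ± 0.17. The cystatin gene Cst6 had 1604 and 1688 against 3229 and 2563 normalized counts (-0.81 ± 0.14), and Ganab, the glucosidase II catalytic subunit gene, 15207 and 16211 against 21165 and 21026 (-0.43 ± 0.11). For all 5 genes both resistant libraries lay below both controls. Without resistant 1 the calls of Apba1 (-0.89), Rbm20 (-1.37), Mfsd13a (-0.87), Cst6 (-0.77) and Ganab (-0.38) ended. Without resistant 2 they ended too (-1.03, -1.28, -0.76, -0.84 and -0.47).

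Only 11 genes (2.26%, against 5.32% of all tested genes) were called higher, against the direction of the chromosome. Tsga10ip, Cfap43 and the kidney transcription factor gene Pax2, named after their values were seen, had at most 59.0 normalized counts in any library. For Pax2 the values were 31.6 and 44.0 against 1.92 and 0, too few reads in the controls for a fold. Cyp2c55, a cytochrome P450 gene with close paralogs beside it, had 996.7 and 999.7 against 383 and 392.3 normalized counts (1.36 ± 0.14, limma adjusted p = 0.00149). Plce1, a Ras-regulated phospholipase C gene 38.5 Mb along, had 94.8 and 136 against 26.9 and 25.2 (2.08 ± 0.30, adjusted p = 0.00699). Shtn1, which encodes the neuronal polarity protein shootin 1, had 745 and 753 against 294 and 281 (1.38 ± 0.15, adjusted p = 0.00205) between segments 8 and 9. In each the resistant libraries lay above both controls.

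The remaining named rises were smaller. Neat1 (ENSMUSG00000092274.3, 5824708 to 5845478) had 10138 and 12261 against 7504 and 5351 normalized counts (0.81 ± 0.17, limma adjusted p = 0.0290) inside segment 2. Syt7, a calcium sensor of lysosomal exocytosis, rose by 0.89 ± 0.14, Tmem151a by 0.91 ± 0.22 and Lrrn4cl by 0.46 ± 0.12. Ankrd1, a well-known target of the coactivators Yap and Taz, had 13967 and 14110 against 9748 and 10903 normalized counts (0.45 ± 0.11, adjusted p = 0.0423). The calls of Lrrn4cl and Ankrd1 also ended with scaling by total reads. Without resistant 2 the calls of Plce1 (1.82), Neat1 (0.68), Syt7 (0.77), Tmem151a (0.88), Lrrn4cl (0.56) and Ankrd1 (0.44) ended, and without resistant 1 those of Tmem151a (0.94), Lrrn4cl (0.37) and Ankrd1 (0.45). Exons of Neat1, Syt7, Cyp2c55, Apba1 and Fen1 overlap those of other annotated genes.

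**Figure D5:**
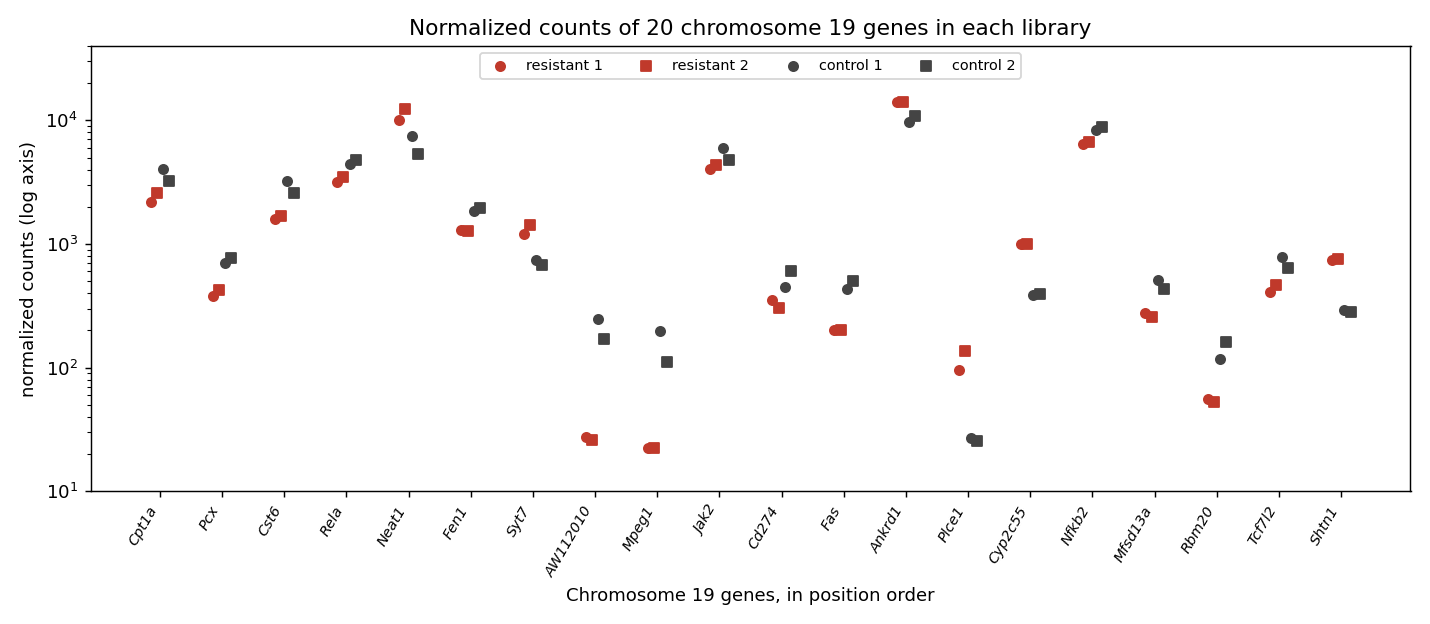
Normalized counts (log axis) of 20 chromosome 19 genes in position order in each library (red resistant, grey control, circles replicate 1, squares replicate 2). AW112010 and Mpeg1 show the widest gaps downward (27.5 against 246 normalized counts for AW112010 in the replicates numbered 1), and Plce1, Cyp2c55 and Shtn1 lie higher in both resistant libraries.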

How the data were processed

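RNA sequencing reads of 4 libraries were processed by the authors. The submitters' processing notes name STAR, DESeq2 and mm10, without versions. The values the authors deposited are log2(normalized count + 1): back-transformed values were whole numbers of reads, once divided by each library's value of 1 read, for 100% of genes (tolerance 0.01 reads), which gave the depths. Identifiers without version matched GENCODE M21 (GRCm38, mm10) for 55144 of 55385 genes, which supplied symbols, positions, exons and transcript GC content. Groups came from the sample source labels. The limma test (version 3.58.1, R version 4.3.3, trend, no block) took all genes averaging 10 or more normalized counts, with p-values adjusted by Benjamini-Hochberg at 0.05. The fit was tested on simulated reads. Fold changes on this scale understate those of low genes. The genes on chromosome 19 and the lists were chosen with earlier results of these data known.

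Named genes were the 10 largest rises and falls among called genes whose groups were separate and whose higher group averaged 100 or more, predicted models and pseudogenes aside (8 rises met this). To these were added the first, last and 3 most read genes of each segment, the 4 genes with the smallest p in each of 7 lists, and Jak2, Cd274, Fas and Pdcd1lg2, the last of which did not reach a mean of 10. Some genes named by this rule are not reported here. Values are given per library, and errors are limma standard errors. Other pseudocounts, filters, scalings, moderation, windows and bounds, limma voom fitted to the reads, a replicate block and leaving out each library were tried. Leaving out a library takes the spread from the other group. Same-numbered libraries did not deviate together from their group means (r = -0.36 across genes), so the numbers were taken only to name samples. With 2 libraries per group the deviations mirror each other, so opposite-numbered libraries did deviate together, to the same extent. The source of that shared variation was not tested.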

Additional observations from a re-analysis of the deposited data

How the results depend on the processing

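The chromosome 19 median stayed below 0 under every alternative, at -0.26 with scaling by total reads or centring on genes outside chromosome 19 and -0.19 over the 306 genes without shared exons, a choice made after seeing the data. The number of lower segments ranged from 7 to 11 and was 4 with a bound of 0.3. Counts of calls moved more. They were 2 higher and 3 lower of 764 genes with no filter, and 7 higher of 404 genes with a mean of at least 50. Under both scalings 54 were lower, and without shared exons 7 were higher and 22 lower. The replicate block gave 10 higher and 21 lower. With crossed numbers, added after seeing the data, the block gave 26 higher and 188 lower of the 487. Calls among all tested genes rose with crossed numbers too, in both directions, so this rise is not particular to chromosome 19. With no filter, and under the replicate block as numbered, calls among all tested genes fell in both directions. Leaving out 1 library gave 3 to 25 higher and 3 to 142 lower, the cause of which was not tested beyond the spread being taken from the other pair. With 1 library left out, segment medians ranged from -0.34 to -0.25 (segment 1), -0.28 to -0.17 (segment 4), -0.37 to -0.21 (segment 5) and -0.30 to -0.16 (segment 9), and that of segment 2 from -0.21 to -0.01. Segment 5 was -0.26 with a pseudocount of 8, -0.25 with no filter and -0.38 under both scalings. Segment 8 was -0.36 with no filter and -0.33 under both scalings, and segment 9 -0.30 under both scalings. Of 23 called named genes, AW112010, Cyp2c55, Mpeg1 and Shtn1 stayed called under every alternative run for them, 18 were lost with no filter and 8 under the block. At 45666470 to 49592054 reads, depth limits only genes of few reads.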
